A study of Mus musculus with 12 samples.

Results

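The comparison set the livers of Alb-Cre:Atg7 FF mice against those of Olig1-Cre:Atg7 FF mice, so that the lines differed in the promoter that drives Cre while both carried the floxed Atg7 allele on both chromosomes. Its arrays were chosen by their source names, 4 for each Cre group and 8 of the 12 arrays in the series, and all genes that could be measured were compared. Both groups are labelled conditional knockouts of Atg7. The controls, which did not enter the comparison, were 4 Atg7 FF livers without Cre. Of these, 2 came from the Alb-Cre line (replicates 1 and 3) and 2 from the Olig1-Cre line (replicates 2 and 4). All mice were 2 months old. The 4 Alb-Cre livers were male. In the Olig1-Cre group replicate 2 was male and the other 3 livers were female, and in the control group replicate 1 was male and the other 3 were female. Sex is therefore nearly confounded with the Cre line, and the male Olig1-Cre liver is the only animal through which it can be separated from it in these 8 arrays.

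Atg7 activates the ubiquitin-like proteins Atg12 and LC3, without which autophagosomes do not form. In hepatocytes that lack it, p62 accumulates, the Nrf2 program is switched on and the liver enlarges. The albumin promoter drives Cre in hepatocytes, whereas Olig1 encodes a transcription factor best known from the oligodendrocyte lineage of the brain. None of the sources used here says where the Olig1-Cre line came from, and the study's text does not describe these mice. Sex differences in the mouse liver are set largely by the pattern of growth hormone release, which drives separate male and female sets of cytochrome P450 and steroid-metabolising genes.

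Total RNA of the livers was hybridised to MouseWG-6 v2.0 BeadChips, on which the brightness of a probe follows the amount of its transcript. Levels are log2 signals after background correction and quantile normalization. The lowest detected signal of an array was 4.49 to 4.92, and values below it lie at the background. Between 39.8 and 43.9% of all probes were detected on the Alb-Cre arrays and between 39.1 and 41.9% on the Olig1-Cre arrays (exact two-sided permutation test, p = 0.229), against 34.2 to 37.8% on the control arrays. Each group was spread over chip 1 (replicates 1 and 2) and chip 2 (replicates 3 and 4). Levels of Xist and of the Y-linked Eif2s3y matched the labelled sex on all 12 arrays. The probe for Atg7 was detected on 2 of the 12 arrays and could not show whether the gene was deleted, and Olig2 was detected on none. Plasma protein and apolipoprotein genes, which mark hepatocytes, were bright in both groups: the 29 measured had mean levels of 11.50 to 11.68 on the Alb-Cre arrays and 11.60 to 11.97 on the Olig1-Cre arrays. In RNA of a tissue, fewer cells of a type and less RNA per cell cannot be told apart. The correlation across genes was 0.962 to 0.986 between Alb-Cre arrays and 0.980 to 0.989 between arrays of the female Olig1-Cre livers. The male Olig1-Cre liver stood apart from the female ones (0.956 to 0.973), and its correlation was 0.936 to 0.964 with the Alb-Cre arrays and 0.961 to 0.964 with the controls. The female Olig1-Cre livers had correlations of 0.963 to 0.980 with Alb-Cre and 0.903 to 0.951 with the controls.

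Few genes separated the Cre lines. Of 10711 genes tested with limma, 17 (0.159%) passed an adjusted p of 0.05, 8 of them higher in Alb-Cre livers (0.0747% of the genes tested) and 9 lower (0.084%). At an unadjusted p under 0.05 there were 1538 genes. A further 23 genes had an adjusted p between 0.05 and 0.06, the smallest of them 0.0503, so many genes lay close to the threshold. When arrays were scaled to a common median instead, 38 genes were called, 29 higher and 9 lower, after a shift of all genes by 0.178. The groups did not overlap for 924 genes (8.63%), among them all 17 that were called. Because the groups of these 17 do not overlap, their direction could not differ on either chip taken alone, nor without any single liver. The count itself rested on single livers: it was 6, 4, 3 and 16 without Alb-Cre replicate 1, 2, 3 or 4 and 8, 29, 13 and 3 without Olig1-Cre replicate 1, 2, 3 or 4. Dennd2a and Gstk1 were called under each of these 8 omissions. The labels do not say which livers share a litter, so a p-value here reflects only how much these 8 animals varied.

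**Figure D1:**
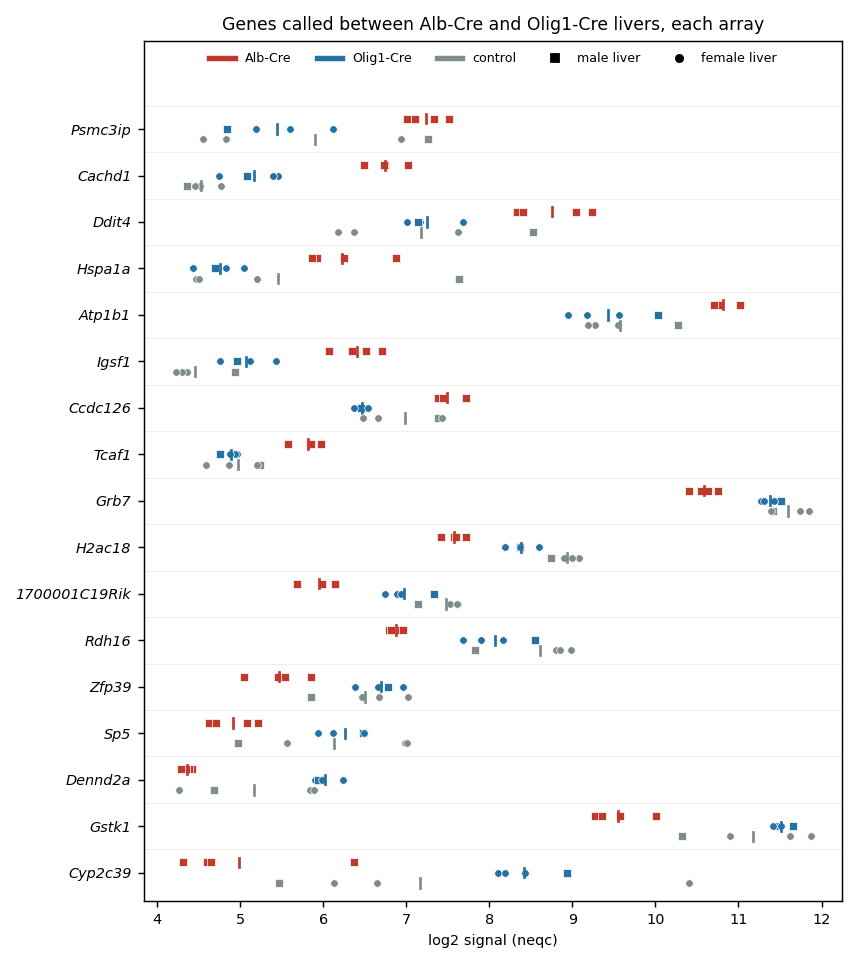
Log2 signal (x axis) of the 17 called genes (rows) on each of the 12 arrays, with squares for male and circles for female livers and a short line for each group mean. The Alb-Cre and Olig1-Cre points do not overlap in any row, and in several rows, such as Psmc3ip and Ccdc126, the control points fall into 2 pairs.

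Among the 8 genes higher in Alb-Cre livers, Psmc3ip, which encodes a partner of the meiotic recombinases, had the largest difference. Its levels were 7.34, 7.01, 7.51 and 7.11 in the Alb-Cre livers and 5.597, 4.85, 6.12 and 5.19 in the Olig1-Cre livers (replicates 1 to 4), a difference of 1.80 (SE 0.25, adjusted p = 0.0359) on the log2 scale or 3.49-fold. The controls divided by line: the 2 controls of the Alb-Cre line had 7.26 and 6.94, close to the Alb-Cre livers, and those of the Olig1-Cre line had 4.56 and 4.83. Ddit4, whose product restrains mTORC1 signalling, had 8.33, 9.05, 9.23 and 8.41 in Alb-Cre and 7.17, 7.14, 7.68 and 7.003 in Olig1-Cre livers (difference 1.51, SE 0.23, adjusted p = 0.0489). Its control levels were 8.53 and 7.62 in the Alb-Cre line and 6.18 and 6.37 in the Olig1-Cre line. Hspa1a, the inducible cytosolic Hsp70 chaperone, had 5.92, 6.87, 5.86 and 6.25 in Alb-Cre and 4.43, 4.70, 5.05 and 4.83 in Olig1-Cre livers (difference 1.47, SE 0.23, adjusted p = 0.0489), with 7.64 and 5.20 in the controls of the Alb-Cre line and 4.47 and 4.51 in those of the Olig1-Cre line. The highest Hspa1a level on any array was thus in a liver without Cre. Hspa1a rests on 1 of its 3 probes, the other 2 not being detected on any array, and it has a nearly identical neighbour, Hspa1b.

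The difference between the lines in livers without Cre was examined for all 17 called genes, in a comparison added after the values were seen. In 15 of 17 the controls of the Alb-Cre line differed from those of the Olig1-Cre line in the same direction as the Cre groups did, against 58.7% of all genes, and in 12 of the 15 the pairs of controls did not overlap. For all genes tested, pairs did not overlap in either direction in 37.9%, and limma called 1 gene between the control lines (0.00934%, lower in the Alb-Cre line), with 730 at an unadjusted p under 0.05. The controls of the 2 lines also differed in sex, since the only male control was of the Alb-Cre line, so line and sex cannot be told apart within them except through replicate 3. For Psmc3ip, Ddit4, Hspa1a and Sp5 the difference between control lines (2.40, 1.80, 1.93 and -1.73 on the log2 scale) was larger than that between the Cre groups. Psmc3ip was detected on 3 control arrays and Hspa1a on 2, so the differences of these genes between control lines rest partly on signals at background. The Cre effect was also taken within each line, against its own controls, and the 2 effects were compared. Here limma called 0 genes (759 at an unadjusted p under 0.05). This comparison subtracts the difference between control lines from that between Cre groups. The sign for these 4 genes was therefore opposite to that of the plain comparison by construction. On simulated data of this design 24% of genes with a log2 change of 1 and 82% of those with a change of 2 were recovered.

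**Figure D2:**
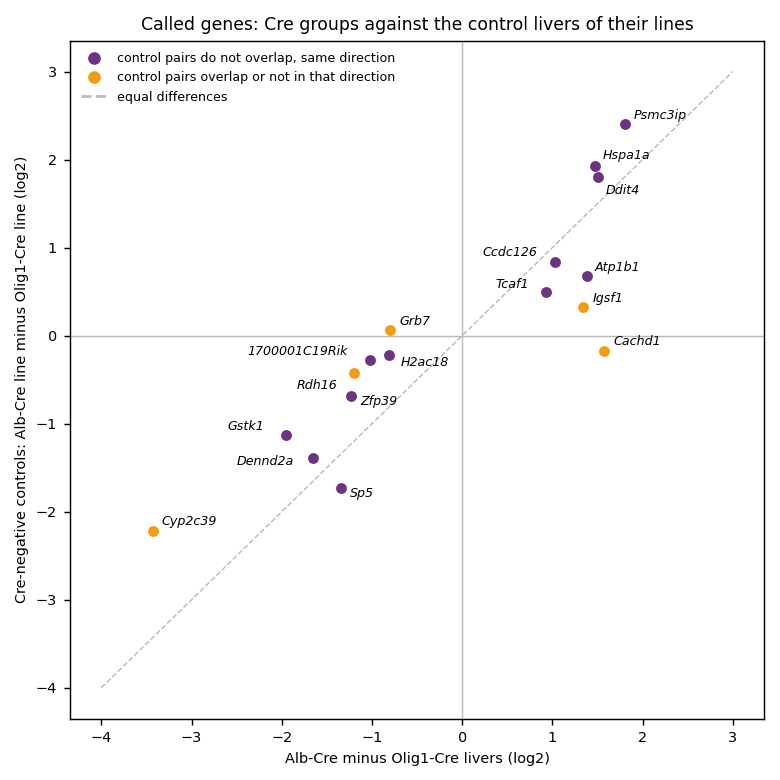
Difference between the Alb-Cre and Olig1-Cre livers (x axis, log2) against the difference between the control livers of the 2 lines without Cre (y axis, log2) for the 17 called genes, in purple where the control pairs did not overlap in the same direction and in orange otherwise. Psmc3ip, Hspa1a, Ddit4 and Sp5 lie beyond the dashed line of equal differences, while Cachd1 and Grb7 lie near 0 on the y axis (-0.17 and 0.06).

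Of the called genes, 4 lie on chromosome 6, which also carries Atg7. They are 4 of 545 tested genes there (0.734%, against 0.159% of all genes). Dennd2a, an exchange factor for Rab proteins, was not detected on any Alb-Cre array but on all 4 Olig1-Cre arrays, with levels of 4.42, 4.39, 4.35 and 4.28 against 5.90, 5.94, 5.98 and 6.24. It was at least 2.76-fold lower in Alb-Cre livers, a bound that sets the dim group at the lowest detected signal of each array, with a fitted difference of -1.66 (SE 0.11, adjusted p = 0.000624). The controls followed their line, at 4.68 and 4.26 in the Alb-Cre line and 5.84 and 5.88 in the Olig1-Cre line. Ccdc126, which encodes a coiled-coil protein, had 7.43, 7.38, 7.72 and 7.45 in Alb-Cre and 6.52, 6.45, 6.54 and 6.37 in Olig1-Cre livers (difference 1.02, SE 0.12, adjusted p = 0.0153), with controls at 7.38 and 7.43 and at 6.66 and 6.48. Tcaf1, a partner of a TRP ion channel, had 5.57, 5.85, 5.97 and 5.85 in Alb-Cre and 4.96, 4.76, 4.94 and 4.87 in Olig1-Cre livers (difference 0.93, SE 0.12, adjusted p = 0.0325), and its controls had 5.24 and 5.20 in the Alb-Cre line and 4.58 and 4.86 in the Olig1-Cre line.

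Gstk1, the kappa class glutathione S-transferase of mitochondria and peroxisomes, was lower in Alb-Cre livers in the median of its 2 probes, at 9.28, 9.35, 9.57 and 10.01 against 11.46, 11.66, 11.51 and 11.42 (difference -1.96, SE 0.16, adjusted p = 0.00187). Its probes disagreed. The dimmer probe ranged from 6.85 to 8.02 in Alb-Cre and from 11.36 to 11.67 in Olig1-Cre livers, a difference of -4.17, and had 8.19, 11.92, 9.19 and 11.60 in control replicates 1 to 4, again low in the Alb-Cre line. The brighter probe ranged from 11.57 to 11.99 in Alb-Cre and from 11.42 to 11.65 in Olig1-Cre livers, a difference of 0.26 in the opposite direction. With the brightest probe taken for each gene Gstk1 was not called. The call therefore came from 1 of its 2 probes.

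In the gene order of chromosome 6 the 4 called genes lay within a run of 44 consecutive tested genes from Dennd2a to Ccdc126. Atg7 lay 220 tested genes beyond that run. Of the 91 tested genes within 10 Mb of Atg7 none was called, nor were any of the 63 around Alb or the 61 around Olig1 on their chromosomes. A further 4 genes of chromosome 6, named after their values were seen, narrowly missed the threshold. Parp12, a mono-ADP-ribosyltransferase, had 4.32, 6.99, 4.37 and 4.68 in Alb-Cre livers and 8.30, 7.98, 8.26 and 8.03 in Olig1-Cre livers (difference -3.05, SE 0.51, adjusted p = 0.0505), and its controls had 4.21 and 4.39 in the Alb-Cre line and 7.50 and 7.54 in the Olig1-Cre line. Alb-Cre replicate 2 was the exception among its group for this gene. Zfp467 (difference -0.89, SE 0.14, adjusted p = 0.0503) had controls at 6.04 and 6.15 and at 7.03 and 6.804, also divided by line. Inmt, an indole N-methyltransferase (difference -1.68, SE 0.27, adjusted p = 0.0503), and Dennd11 (difference 0.74, SE 0.12, adjusted p = 0.0503) differed less between control lines, by -0.79 and 0.07.

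**Figure D3:**
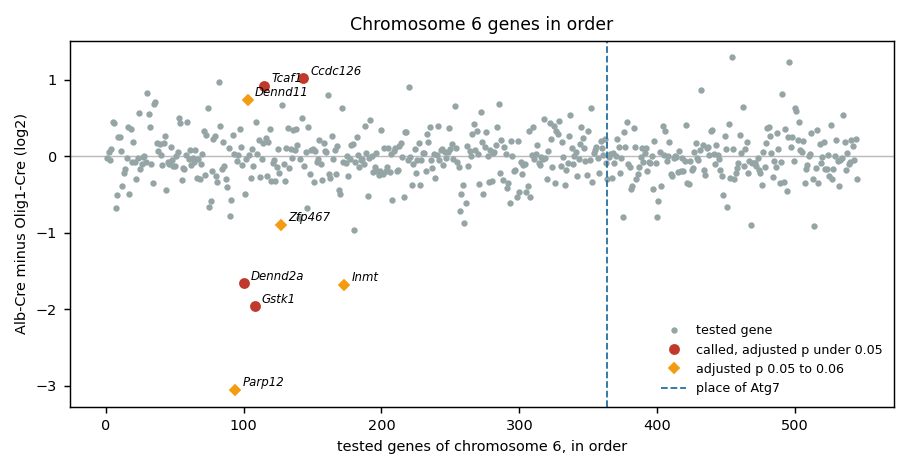
Difference between Alb-Cre and Olig1-Cre livers (y axis, log2) for the 545 tested genes of chromosome 6 in their order along it (x axis, rank of the gene). The 4 called genes lie at ranks 100 to 143, diamonds mark genes with an adjusted p from 0.05 to 0.06, and the dashed line marks the place of Atg7 after 363 genes.

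For 6 called genes the control lines differed by less, from -0.42 for Rdh16 to 0.33 for Igsf1. Cachd1, which encodes a membrane protein related to calcium channel subunits, was near background in all controls, at 4.36, 4.77, 4.52 and 4.46 in replicates 1 to 4. It was intermediate in Olig1-Cre livers, at 5.46, 5.09, 5.39 and 4.75, and highest in Alb-Cre livers, at 6.49, 6.74, 6.74 and 7.02. The difference of 1.58 (SE 0.18, adjusted p = 0.0153) corresponds to 2.98-fold, and it was the 1 gene of the 17 that was also called with sex as a covariate in all 12 arrays (difference 1.70, SE 0.22, adjusted p = 0.013). It rests on 1 of its 2 probes, the other being detected on no array. Igsf1, an X-linked membrane glycoprotein, had 6.08, 6.52, 6.35 and 6.70 in Alb-Cre and 5.43, 4.96, 5.11 and 4.75 in Olig1-Cre livers (difference 1.34, SE 0.18, adjusted p = 0.0325) and was detected on 1 of the 4 control arrays. All 3 of its measured probes were higher in Alb-Cre livers, by 1.32, 1.33 and 0.85.

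Grb7, an adaptor of receptor tyrosine kinases, was lower in Alb-Cre livers, at 10.40, 10.75, 10.55 and 10.63 against 11.27, 11.51, 11.31 and 11.43 (difference -0.80, SE 0.12, adjusted p = 0.0489), and its control levels were 11.42, 11.75, 11.84 and 11.40. The histone gene H2ac18 (difference -0.81, SE 0.12, adjusted p = 0.0489) and 1700001C19Rik (difference -1.03, SE 0.16, adjusted p = 0.0489) also had their highest means in the controls and their lowest in the Alb-Cre livers. For H2ac18 the 2 brighter probes differed by -0.92 and -0.81 and the dimmest by -0.25, and the histone genes of its cluster are close copies of each other. Rdh16, a retinol and steroid dehydrogenase, had 6.94, 6.96, 6.79 and 6.81 in Alb-Cre livers and 7.89, 8.54, 7.68 and 8.17 in Olig1-Cre livers (difference -1.20, SE 0.18, adjusted p = 0.0489). Its controls had 7.83, 8.80, 8.98 and 8.85. In these 6 genes the order of the group means was the same, with Olig1-Cre livers between the Alb-Cre livers and the controls. They were grouped after their values were seen, and the share of all genes with this order is not given here. For H2ac18 and 1700001C19Rik the control pairs of the lines did not overlap, in the direction of the Cre groups.

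The other called genes were Zfp39 and Atp1b1, followed by Sp5 and Cyp2c39, which are described with their gene lists. Zfp39, a zinc finger gene, had 5.04, 5.85, 5.45 and 5.54 against 6.96, 6.78, 6.38 and 6.66 (difference -1.23, SE 0.19, adjusted p = 0.0489), with controls at 5.86 and 6.46 in the Alb-Cre line and 7.01 and 6.67 in the Olig1-Cre line. Atp1b1, the beta subunit of the sodium pump, had 10.76, 11.02, 10.76 and 10.71 against 9.56, 10.03, 9.17 and 8.95 (difference 1.39, SE 0.21, adjusted p = 0.0489). For Atp1b1 the male Olig1-Cre liver was the nearest to the Alb-Cre livers, and the male control (10.27) was above the 3 female ones (9.19 to 9.55). Males exceeded females by 0.87 in Olig1-Cre and control livers (adjusted p = 0.0922), and with sex as a covariate the difference was 0.74 (SE 0.19, adjusted p = 0.086). The parts of sex and line in it cannot be told apart.

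Promoters of the called genes were read for 3 short motifs on both strands, TGACNNNGC for Nrf2, TTCNNNGAA for Stat5 and CATTCC for Tead factors, in RefSeq sequence of build GRCm38.p6 from 250 bases before to 50 after the first start listed for each gene. A promoter was found for 16 of the 17 genes. The Nrf2 motif occurred in 1 of the 16 (12.5% of all 27025 promoters), the Stat5 motif in 1 (8.47%) and the Tead motif in 2 (14.6%). The 4 promoters with a match are shown, with the matched letters in capitals: the Nrf2 motif in Cachd1, the Stat5 motif in Rdh16 and the Tead motif in Ccdc126 and Igsf1. A match describes the letters only.
Cachd1 (chromosome 4, + strand): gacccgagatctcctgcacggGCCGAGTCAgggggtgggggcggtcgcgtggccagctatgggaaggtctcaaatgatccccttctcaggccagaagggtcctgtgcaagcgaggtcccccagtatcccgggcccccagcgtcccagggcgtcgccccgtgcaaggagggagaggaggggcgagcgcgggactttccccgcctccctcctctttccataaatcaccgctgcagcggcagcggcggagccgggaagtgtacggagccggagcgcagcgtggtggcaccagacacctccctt
Rdh16 (chromosome 10, + strand): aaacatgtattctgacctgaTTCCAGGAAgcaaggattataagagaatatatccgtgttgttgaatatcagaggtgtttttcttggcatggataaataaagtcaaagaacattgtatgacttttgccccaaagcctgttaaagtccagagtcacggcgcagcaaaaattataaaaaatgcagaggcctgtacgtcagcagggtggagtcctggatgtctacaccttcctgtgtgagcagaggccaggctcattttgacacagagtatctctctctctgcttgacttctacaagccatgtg
Ccdc126 (chromosome 6, + strand): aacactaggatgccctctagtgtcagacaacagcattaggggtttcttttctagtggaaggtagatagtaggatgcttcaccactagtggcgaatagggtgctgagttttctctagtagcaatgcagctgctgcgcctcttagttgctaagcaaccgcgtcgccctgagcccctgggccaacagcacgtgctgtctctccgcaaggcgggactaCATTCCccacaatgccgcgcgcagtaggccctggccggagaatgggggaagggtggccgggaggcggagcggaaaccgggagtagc
Igsf1 (chromosome X, - strand): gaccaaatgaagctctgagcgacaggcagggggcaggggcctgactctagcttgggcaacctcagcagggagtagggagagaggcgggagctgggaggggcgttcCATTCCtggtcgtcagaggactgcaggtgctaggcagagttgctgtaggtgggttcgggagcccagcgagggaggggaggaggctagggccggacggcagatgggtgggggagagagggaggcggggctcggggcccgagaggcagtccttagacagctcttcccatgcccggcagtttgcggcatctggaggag

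Genes with a known sex bias in the liver showed where the male Alb-Cre livers stood. Of 26 male-biased genes listed, 21 could be tested. None was called between the Cre groups, and their median difference was 0.08 against -0.00 for all genes. In the Olig1-Cre and control livers all 21 had a higher level in males, 9 of them at an adjusted p under 0.05 (0.429% of all genes were called between the sexes, 23 higher and 23 lower in males, 0.215% each). The male Olig1-Cre liver was above all 3 female Olig1-Cre livers for 18 of the 21, beside 4 of 23 female-biased genes. The share over all genes is not given here, and this liver stood apart from the females across genes. All 4 male Alb-Cre livers lay below the male Olig1-Cre liver for 14 of the 21, against 27.3% of all genes. They lay above it for 2, against 27.4% of all genes. The mean level of the 21 genes was 9.18, 9.65, 8.07 and 9.57 in the Alb-Cre livers, 8.17 to 8.68 in the female Olig1-Cre livers and 10.55 in the male one, so 3 of the 4 Alb-Cre livers stood between the female livers and the male one. The median difference of the 21 genes was -1.27 against that 1 male liver and 0.48 against the female ones.

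Hsd3b5, a male-specific steroid reductase, was not detected on any Alb-Cre array, at 4.39, 4.51, 4.31 and 4.45, although all 4 livers were male. The female Olig1-Cre livers had 4.29, 4.25 and 4.30 and the male one 11.09. The male control had 11.84 and the female controls 8.62, 6.84 and 6.89. Over the groups it was at least 2.69-fold lower in Alb-Cre livers, a bound that rests on the 1 Olig1-Cre array on which it was detected, and it was not called in the plain comparison (adjusted p = 0.63). It was called lower with sex as a covariate in all 12 arrays (adjusted p = 0.00189), where the fitted difference of -5.76 is set against a group at background and is no measured fold. Nat8, an acetyltransferase of liver and kidney, and Susd4, a complement regulator, had the same form. The levels of Nat8 were 5.90, 5.15, 4.69 and 5.71 in Alb-Cre livers, 8.28 in the male Olig1-Cre liver and 8.87 in the male control (difference -3.03 with sex, SE 0.38, adjusted p = 0.0116). Susd4 was at 4.30, 4.27, 4.61 and 4.27 in Alb-Cre livers, with 6.96 in the male Olig1-Cre liver and 8.09 in the male control (difference -2.75, SE 0.29, adjusted p = 0.00243). For Nudt7, a peroxisomal hydrolase of coenzyme A, the sex-adjusted difference was -1.77 (SE 0.36, adjusted p = 0.0495). All 4 genes were named after their values were seen, and the adjusted values assume the same sex difference in every group.

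Other male-biased genes did not all have this form. Cyp2d9, a testosterone hydroxylase, had 11.95, 12.24, 11.89 and 12.21 in Alb-Cre livers, below the 13.03 of the male Olig1-Cre liver but above all 3 female Olig1-Cre livers (10.73, 11.57 and 10.61). Cyp7b1, an oxysterol hydroxylase, had 9.48, 10.45, 7.96 and 9.61, around the levels of the female Olig1-Cre livers (9.55, 9.56 and 9.82) and below the male one (11.85). Neither passed the threshold once sex was in the fit (adjusted p = 0.144 and 0.0585).

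Of 37 female-biased genes, 23 could be tested, and 1 of them was called, lower in Alb-Cre livers. This was Cyp2c39, a P450 of the Cyp2c family and the largest difference among the 17, at 4.60, 4.31, 4.64 and 6.37 against 8.42, 8.93, 8.10 and 8.19 (difference -3.43, SE 0.40, adjusted p = 0.0164), or 10.8-fold. It was detected on 3 of the 4 Alb-Cre arrays. Replicate 2 lay below the lowest detected signal of its array (4.62), and replicates 1 and 3 lay close to theirs (4.57 and 4.49). The fold is therefore not an exact measure. The male Olig1-Cre liver had the highest level of its group (8.93), a difference between males and females was not detectable among the Olig1-Cre and control livers (-0.78, adjusted p = 0.731), and the sex-adjusted difference was -2.84 (SE 1.09, adjusted p = 0.216). Controls ranged from 5.46 to 10.41 without dividing by line. The median of the 23 genes was -0.49 without a covariate and 0.64 with sex in 12 arrays, while with sex in the 8 arrays it was -0.051, so the direction of the group turned in the fit of 12 arrays and not in that of 8. The fit of 8 arrays sets the Alb-Cre livers against the male Olig1-Cre liver alone. Cyp2b9 was at 5.66, 4.89, 7.75 and 5.21 in Alb-Cre livers, 5.59 in the male Olig1-Cre liver and 9.32, 8.81 and 10.71 in the female ones, while the female controls reached 12.05 to 12.50. Cyp2b13 and A1bg were likewise low in all male livers, at 4.24 to 4.48 and 4.22 to 4.43 in the Alb-Cre group. In the female Olig1-Cre livers Cyp2b13 had 5.51, 5.26 and 8.89, below each female control (12.14 to 12.64).

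**Figure D4:**
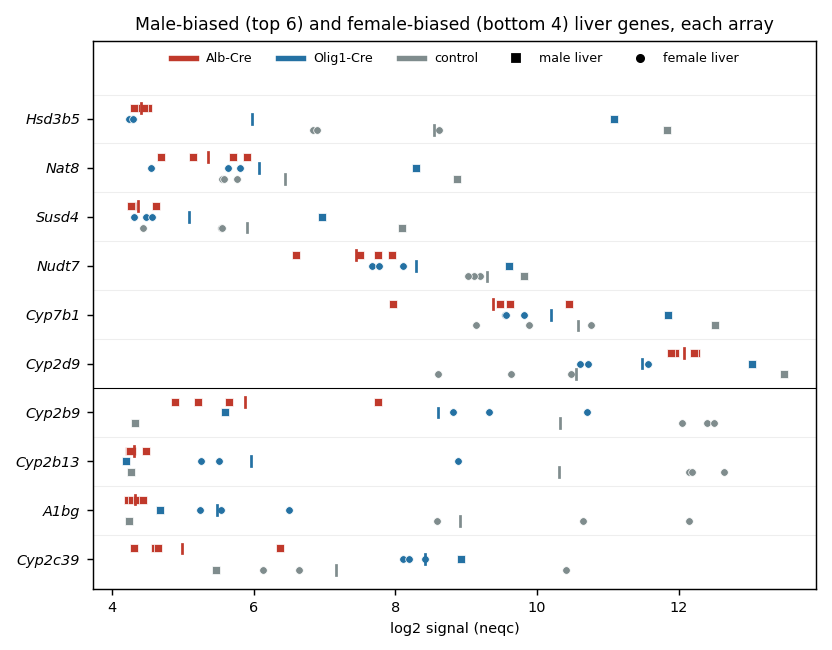
Log2 signal (x axis) of 6 male-biased and 4 female-biased liver genes (rows) on each array, with squares for male and circles for female livers and a short line for each group mean. For Hsd3b5 the 4 male Alb-Cre livers lie at 4.31 to 4.51, with the female Olig1-Cre livers and far from the male Olig1-Cre liver at 11.09.

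With sex as a covariate in all 12 arrays limma called 63 genes (0.588%), 45 higher (0.42%) and 18 lower (0.168%) in Alb-Cre livers, and 1 of them, Cachd1, was also among the 17. For 35 of the 63 the 2 groups did not overlap. The male livers in this fit were the 4 of Alb-Cre, 1 of Olig1-Cre and 1 control. The count was 7 without the male Olig1-Cre liver and 390 without the male control, and it ranged from 5 (without Olig1-Cre replicate 4) to 390 over the 12 single omissions. With arrays scaled to 1 median it was 3758, with 3738 higher and 20 lower, after a shift of all genes by 0.556. Genes named here from this fit were chosen after their values were seen. All 17 genes of the plain comparison kept their direction in it.

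The genes called higher included Plat, the tissue plasminogen activator, at 8.81, 7.79, 8.99 and 8.09 in Alb-Cre livers and 7.02, 5.11, 7.01 and 5.81 in Olig1-Cre livers (difference 2.82 with sex, SE 0.45, adjusted p = 0.0306), and Tspan8, a tetraspanin of the cell surface, at 8.63, 8.02, 9.04 and 7.86 in Alb-Cre and 7.03, 5.54, 7.63 and 6.70 in Olig1-Cre livers (difference 2.39, SE 0.39, adjusted p = 0.0306). Both were near the background in all 4 controls, at 4.23 to 4.81. Golm1, a Golgi glycoprotein and serum marker of liver disease in humans (difference 1.70, SE 0.28, adjusted p = 0.0306), Lcn2, an iron-scavenging acute phase protein (difference 2.01, SE 0.32, adjusted p = 0.0306), and Prc1, a protein of the central spindle (difference 2.23, SE 0.38, adjusted p = 0.0306), were also called higher. In each of these genes the male Olig1-Cre liver had the lowest level of its group, such as 6.87 for Golm1 beside 8.13 to 8.71 in the females. Tead1, a DNA-binding partner of Yap, was at 7.46, 7.39, 7.55 and 7.20 in Alb-Cre and 6.59, 6.07, 6.66 and 7.03 in Olig1-Cre livers (difference 1.24, SE 0.18, adjusted p = 0.0235). Hbb-bs, a beta globin chain, was at 12.33, 13.22, 13.32 and 12.05 in Alb-Cre and 10.93, 9.78, 11.13 and 10.88 in Olig1-Cre livers (difference 2.40, SE 0.42, adjusted p = 0.0306), and the controls had 12.24, 12.29, 11.55 and 12.05. All 4 controls lay above all 4 Olig1-Cre livers for this gene, whose reading may be shared with its close copy Hbb-bt, and young red cells carry this RNA. Hbb-bt, which was not on the erythroid list, was also called higher in this fit (difference 2.36, SE 0.42, adjusted p = 0.0306). Of 8 erythroid genes tested 1 was called higher with sex in 12 arrays, Hbb-bs, and 1 lower, Alas2, the erythroid enzyme of haem synthesis (difference -1.54, SE 0.30, adjusted p = 0.0438). Alas2 had 8.20, 8.51, 7.44 and 8.19 in Alb-Cre and 7.30, 9.39, 6.79 and 7.43 in Olig1-Cre livers, with its highest Olig1-Cre level in the male, and males exceeded females by 2.53 in Olig1-Cre and control livers (adjusted p = 0.00153). None of the 8 was called in the plain comparison, and their median was 0.38. The part of blood in other differences was not tested.

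Among the genes called lower were Cyp4a31, a fatty acid hydroxylase of the Ppara program, and Nr1d1, a repressor of the circadian clock. Cyp4a31 had 5.31, 5.25, 5.64 and 4.76 in Alb-Cre and 6.54, 8.18, 6.91 and 7.94 in Olig1-Cre livers, with controls at 9.57, 9.08, 10.19 and 10.21 (difference -2.45 with sex, SE 0.47, adjusted p = 0.039). Nr1d1 had 5.25, 5.29, 4.99 and 5.41 in Alb-Cre and 6.29, 6.57, 5.83 and 6.27 in Olig1-Cre livers (difference -1.18, SE 0.22, adjusted p = 0.038). Both had narrowly missed the threshold without the covariate (adjusted p = 0.0503 and 0.0505). The time of day at which the livers were taken was not given in the sources used here. Mcm10, a replication factor, was lower at 6.86, 7.54, 6.35 and 7.56 against 7.82, 9.98, 7.44 and 7.69 (difference -2.45, SE 0.41, adjusted p = 0.0306), with 10.05, 9.33, 8.37 and 9.12 in the controls. It was not typical of its list, in which it had the lowest difference of the plain comparison. Of 26 S phase and replication genes tested, 17 had positive differences, with a median of 0.19 (0.40 with sex in 12 arrays).

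The pericentral and Wnt target genes, which mark the hepatocytes around the central vein, had mostly negative differences. Of 20 tested, 1 was called lower (0.084% of all genes were), and 19 had negative differences with a median of -0.41 (-0.43 with sex). With own-line controls the median was -0.10. The called gene was Sp5, a transcription factor induced by beta-catenin, at 5.09, 4.63, 5.22 and 4.71 against 6.11, 6.48, 5.94 and 6.49 (difference -1.35, SE 0.18, adjusted p = 0.0325). Its controls divided by line, at 4.98 and 5.56 in the Alb-Cre line and 6.99 and 7.01 in the Olig1-Cre line. Slc1a2, the glutamate transporter of pericentral hepatocytes, had 4.89, 5.12, 4.77 and 4.98 in Alb-Cre and 6.08, 8.50, 6.07 and 7.07 in Olig1-Cre livers, and 9.46, 10.09, 9.70 and 9.52 in controls of both lines (difference -1.99, SE 0.46, adjusted p = 0.123), and it was called lower with sex as a covariate (difference -2.66, SE 0.48, adjusted p = 0.0306). Glul, glutamine synthetase, had 4.76, 4.71, 4.76 and 5.32 against 5.52, 6.36, 5.66 and 6.14 with no overlap (difference -1.03, SE 0.21, adjusted p = 0.0946).

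Other hepatocyte functions were compared by their lists. Of 33 amino acid breakdown genes none was called, 27 had negative differences, and their median was -0.43 (-0.57 with sex in 12 arrays). Medians were -0.29 for 22 bile acid genes, -0.22 for 24 coagulation genes, -0.21 for 29 genes of fatty acid oxidation, -0.19 for 33 genes of oxidative phosphorylation and -0.11 for the 29 plasma protein genes, again with no member called. Without the male Olig1-Cre liver the medians of the bile acid, coagulation and plasma protein genes were -0.11, -0.105 and -0.049. Cyp8b1, which sets the share of cholic acid among the bile acids, had 10.87, 10.90, 8.85 and 9.63 in Alb-Cre and 12.21, 12.64, 11.95 and 12.14 in Olig1-Cre livers with no overlap (difference -2.17, SE 0.42, adjusted p = 0.0815). Of the autophagy genes 29 were tested with a median of -0.01, and for 31 lysosome genes it was -0.01.

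A list of 27 genes was drawn up for the study, and its text does not name all of them. Ccn2, Afp, Axl, Birc5 and Ccnd1 are among those it does not name. Of the 27, 22 were tested and none was called between the Cre lines, with a median of 0.15. Srxn1, an Nrf2 target, was at 11.60, 11.60, 11.79 and 10.96 in Alb-Cre and 10.97, 9.63, 11.49 and 10.96 in Olig1-Cre livers, beside 6.72, 6.87, 6.76 and 6.39 in the controls, and Nqo1 was at 7.38, 7.06, 7.41 and 7.20 in Alb-Cre and 7.41, 6.32, 7.69 and 7.18 in Olig1-Cre livers beside controls at 5.09 to 5.42. The p62 gene Sqstm1 was at 11.87, 12.12, 11.95 and 12.05 in Alb-Cre and 11.98, 11.22, 12.17 and 11.71 in Olig1-Cre livers. In all 3 the male Olig1-Cre liver had the lowest level of the 8 livers. The differences were 0.73, 0.11 and 0.23 (adjusted p = 0.382, 0.884 and 0.629). The fetal marker Afp ranged from 4.99 to 8.50 in Alb-Cre and from 4.37 to 7.21 in Olig1-Cre livers (difference 0.72, SE 0.77, adjusted p = 0.707), and Yap1 itself was at 7.59, 7.72, 7.65 and 7.45 in Alb-Cre and 7.31, 7.58, 7.34 and 7.47 in Olig1-Cre livers (difference 0.18, SE 0.12, adjusted p = 0.508). Of the 35 tested Nrf2 targets none was called, and 30 had positive differences with a median of 0.24. Without the male Olig1-Cre liver this median was 0.043, and with own-line controls it was 0.071. With sex as a covariate it was 0.50 in 12 arrays and 0.77 in 8, where the fit sets the Alb-Cre livers against the male Olig1-Cre liver alone. In the fit of 12 arrays 1 Nrf2 target was called higher, where 0.42% of all genes were. This was Abcc4 (difference 1.51, SE 0.26, adjusted p = 0.0306). For the genes listed for the study the median was 0.065 without the male Olig1-Cre liver and 0.15 with sex in 12 arrays.

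Yap and Taz targets had a median of 0.35, with 24 of 30 positive and none called. Ccn2, a secreted matricellular protein and standard Yap target, was at 10.37, 9.62, 11.50 and 9.13 in Alb-Cre and 8.29, 8.06, 8.90 and 8.97 in Olig1-Cre livers with no overlap (difference 1.60, SE 0.45, adjusted p = 0.164). Axl, a receptor tyrosine kinase (0.28), Birc5, the survivin gene (0.73), and Ccnd1, cyclin D1 (0.51), had smaller differences (adjusted p = 0.482, 0.27 and 0.386). Sox9, a transcription factor of biliary and progenitor cells, was at 8.24, 7.61, 8.22 and 7.97 in Alb-Cre and 7.32, 6.62, 6.84 and 6.77 in Olig1-Cre livers (difference 1.12, SE 0.19, adjusted p = 0.0505), beside 5.76, 5.36, 6.35 and 5.65 in the controls. Tead2 was at 5.86, 5.52, 5.66 and 5.34 in Alb-Cre and 4.91, 4.77, 5.001 and 4.94 in Olig1-Cre livers (difference 0.69, SE 0.13, adjusted p = 0.0831). All 22 mitosis genes tested had positive differences, with a median of 0.63, and none was called. With sex as a covariate the median was 1.01 and 2 were called higher (0.42% of all genes were). For the male Olig1-Cre liver the mean level of these genes was 5.12, for the 3 females 5.996 to 6.36, for Alb-Cre livers 6.16 to 6.97 and for controls 4.67 to 4.90. Without that liver the median was 0.39. The p53 targets (14 tested, median 0.36) had no called member.

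Markers of the other cells of the liver were compared in the same way. Of 36 stellate cell and matrix genes 30 were tested. None was called, 28 had positive differences, and the median was 0.65, with mean levels of 6.87 to 7.74 in Alb-Cre livers, 6.47 to 6.98 in Olig1-Cre livers and 5.95 to 6.16 in controls. Col1a1, a chain of the main fibrillar collagen, had 8.73, 7.49, 7.74 and 6.73 against 6.49, 5.58, 6.15 and 6.32 with no overlap (difference 1.54, SE 0.37, adjusted p = 0.134). Of 24 cholangiocyte and progenitor markers 14 were tested, with 13 positive, a median of 0.57 and mean levels of 7.78 to 8.07 against 6.89 to 7.61. The controls had 6.22 to 6.37. The Cre groups did not overlap in this mean level, which was not particular to this list. They also did not overlap in the mean levels of the p53, Yap and Taz, Hippo, erythroid, amino acid breakdown, pericentral and female-biased lists. Macrophage and neutrophil genes had a median of 0.02 over 26 tested, T, B and NK cell genes of -0.16 over 11 tested, interferon response genes of -0.20 over 28 tested and liver endothelial markers of -0.08 over 22 tested, with no member called. With sex in 12 arrays these medians were 0.40, 0.041, 0.12 and -0.022, so the direction turned for the lymphocyte and interferon lists. The interferon median was 0.16 within chip 1 and -0.43 within chip 2. Of 14 oligodendrocyte lineage genes 7 were tested and none was called, and Olig1 itself, whose probe was detected on all 12 arrays, was at 6.01, 4.73, 6.88 and 5.47 in Alb-Cre and 6.73, 6.88, 6.37 and 6.09 in Olig1-Cre livers (difference -0.74, SE 0.39, adjusted p = 0.416). The part of a changed cell composition in the differences of single genes was not tested.

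**Figure D5:**
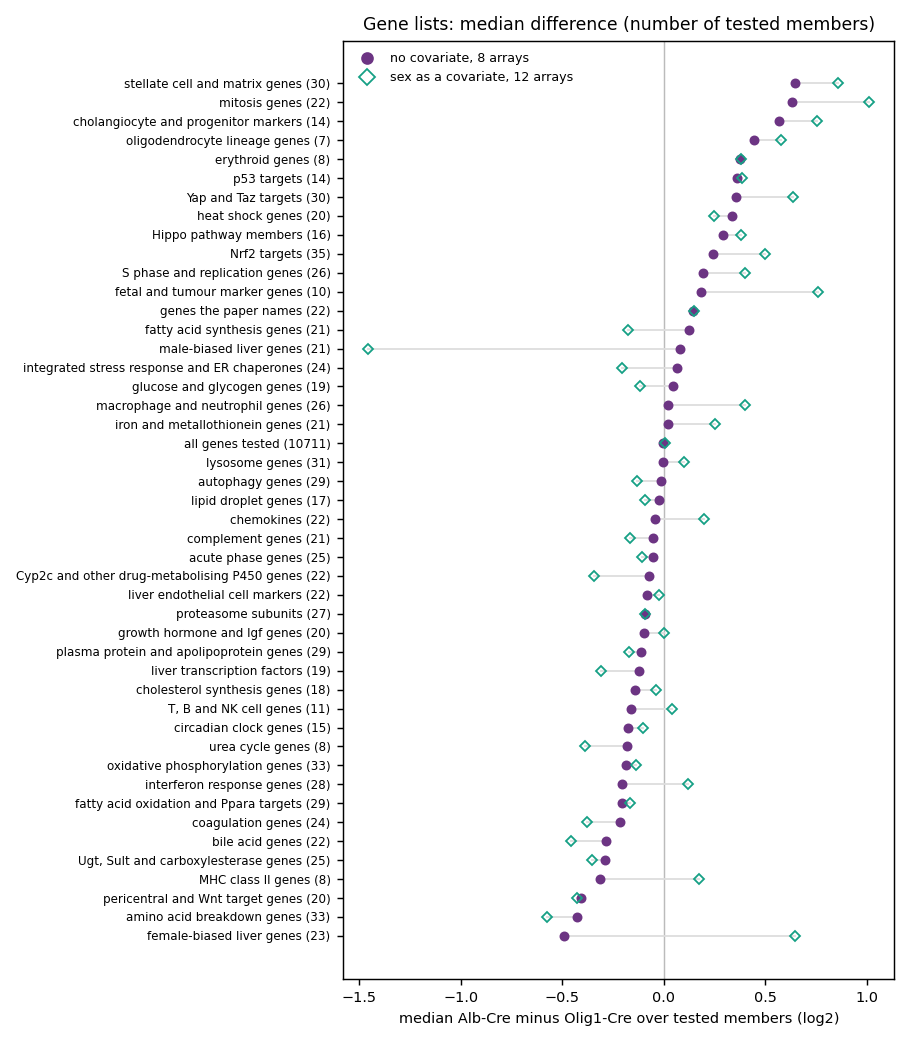
Median difference between Alb-Cre and Olig1-Cre livers (x axis, log2) over the tested members of each gene list (rows), without a covariate (filled circles) and with sex as a covariate in all 12 arrays (open diamonds). Male-biased genes move from 0.08 to -1.46 and female-biased genes from -0.49 to 0.64, while stellate and matrix genes (0.65 and 0.86) and mitosis genes (0.63 and 1.01) are positive in both.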

How the data were processed

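RNA of 12 livers was measured on MouseWG-6 v2.0 BeadChips. The authors deposited the intensity of 45281 probes, exported without normalization, with a detection p-value against the negative control beads, and a table of log2 values. Their processing notes name the tools GenomeStudio and limma 3.22.1, and the methods name a cubic spline, but the deposited log2 table lay within 0.0270 of neqc values. In R 4.3.3 with limma 3.58.1, neqc (offset 16, quantiles over 12 arrays) was applied, probes were kept when detected (p-value under 0.05) on 4 or more of 12 arrays, and the median of the probes of a gene was taken (10711 genes). In the platform annotation 34885 probes had 1 gene symbol, 18 several and 10378 none, and the last 2 kinds were left out. The main fit used lmFit and eBayes on 8 arrays without a covariate, two-sided, with Benjamini-Hochberg adjustment over all genes. Further fits used 12 arrays with group and sex, or compared males with females among the 8 Olig1-Cre and control livers. Comparisons within lines were added after the values were seen. Precision is limited by the number of arrays. In simulations of the main comparison with 200 of 10711 genes changed, 24, 66, 98 and 98% were recovered at log2 changes of 0.5, 1, 2 and 4, with 2.05% of calls false.

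Genes named are the 10 highest and 10 lowest called genes whose groups do not overlap, the same for genes called in both fits, up to 4 called members of a list, sex chromosome genes, Atg7, Alb, Olig1, Olig2 and the genes listed for the study. All other named genes were chosen after their values were seen. The comparison and its 46 gene lists were chosen with earlier results of these data known. Gene order and chromosomes come from GRCm38.p6, while the build of the array design was not given in the sources used here.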

Additional observations from a re-analysis of the deposited data

Results flagged for a closer look

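Among the 61 genes named, 1 of the 4 arrays of a group stood far from the other 3 in the cases below, by a test that chance meets in about 1 of 20 groups. It was met in 25 of 183 groups tested, each gene being tested in each group of arrays. Many of these genes, among them Hsd3b5, Nat8, Susd4, Cyp7b1, Cyp2b9 and Cyp2b13, were named after their values were seen. The count therefore cannot be set against that share. Flags for Xist, Eif2s3y and Kdm5d in the Olig1-Cre and control groups follow from the 1 male in each. The male Olig1-Cre liver was the array set apart in its group for Xist (4.23, next 8.28), Eif2s3y (9.30), Kdm5d (6.35), Hsd3b5 (11.09, next 4.30), Susd4 (6.96), Cyp7b1 (11.85), Mcm10 (9.98, next 7.82), Axl (9.74, next 10.35) and Birc5 (5.07, next 6.11). The last 3 are not on the lists of sex-biased genes. The male control was set apart for Xist (4.24), Eif2s3y (9.10), Kdm5d (5.61), Nat8 (8.87), Alas2 (10.63, next 8.01), Rdh16 (7.83), Cyp2b9 (4.32) and Cyp2b13 (4.26), and control replicate 4 for Birc5 (4.82).

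Within the Alb-Cre group replicate 2 was high for Atp1b1 (11.02, next 10.76) and Parp12 (6.99, next 4.68) and low for Alb (4.44), whose only named probe lies near the background. Replicate 4 was high for Cyp2c39 (6.37, next 4.64), Eif2s3y (9.57) and Glul (5.32, next 4.76), and replicate 3 for Susd4 (4.61). In Cyp2c39, Glul and Parp12 the deviating liver lay toward the Olig1-Cre livers without reaching them. The test of the difference between the Cre effects in the 2 lines called no gene.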

How the results depend on the processing

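No paired analysis was possible because no label numbers the livers, so none can be paired across the groups. Of the 17 genes called between Alb-Cre and Olig1-Cre livers, all kept their direction under every alternative run on the plain comparison but for Gstk1 with the brightest probe (0.26). For single omissions, single chips and males alone this was fixed in advance, because the groups of these genes do not overlap. It was also fixed with sex in 8 arrays, whose estimate equals that of males alone. The t-test, the spread shared by 12 arrays and the chip block have the estimate of the main fit, so direction could not turn there either. The count of calls was 6 with a cubic spline, 6 with quantiles and no background correction, 6 with a normexp offset of 50, 38 with arrays scaled to 1 median (29 higher and 9 lower, against 8 and 9, after a shift of all genes by 0.178), 26 with neqc on the 8 arrays, 4 without a filter, 33 with a detection p-value under 0.01, 32 with detection on all arrays of a group, 33 with the brightest probe and 52 when all 12 arrays shared 1 spread. It was 201 with sex as a covariate in 8 arrays, 63 in 12 arrays, 65 among males alone (4 against 1, the lone liver being assumed to vary like the others), 8 with chip as a block, 0 within chip 1 (1407 at an unadjusted p under 0.05, and 3 within chip 2), 1 by the methods' t-test after Benjamini-Hochberg adjustment and 1369 by its unadjusted threshold. Leaving out 1 liver gave 3 to 29. With own-line controls, added after seeing the data, it was 0, and 2 with sex as well. The cause of these shifts was not tested.

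The sex-adjusted count of 63 became 8 (spline), 8 (no background correction), 3758 (scaled to 1 median, a shift of all genes by 0.556), 7 (offset 50), 4 (no filter) and 115 (brightest probe), and 5 to 390 without 1 liver. The 46 genes called between males and females became 26, 27, 3999 (shift -0.486) and 18 for the spline, no background correction, scaling and no filter, and 29 to 113 without 1 liver. Over the alternatives chosen at the start, for the named genes, 1319 values kept their direction and side of the threshold, 116 passed it newly, 241 no longer passed it and 27 turned in direction. In some of these alternatives the direction could not turn, because they share the estimate of the main fit.

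Own-line differences without sex equal the Cre difference minus the control-line difference, so they turned wherever the controls differed more in the same direction. With own-line controls, without and with sex, the difference turned for Ddit4 (-0.29 and -0.36), Hspa1a (-0.45 and -0.69), Psmc3ip (-0.60 and -0.52), Sp5 (0.38 and 0.39), Parp12 (0.17 and 0.22), Cyp2d9 (-2.27 and -2.88), Cyp2b9 (1.09 and 2.51), Cyp2b13 (2.56 and 3.71), A1bg (1.76 and 2.56), Alas2 (-1.27 and -1.87) and Yap1 (-0.21 and -0.25). With sex in 8 arrays, and equally among males alone, it turned for Eif2s3y (-0.34), Kdm5d (-0.52), Cyp2d9 (-0.96), Cyp2b9 (0.28), Alas2 (-1.31) and Cyp2b13 (0.12). With sex in 12 arrays it turned for Eif2s3y (-0.27), Kdm5d (-0.24), Cyp2d9 (-1.65), Cyp2b9 (1.78), Cyp2b13 (2.26), A1bg (1.58), Alas2 (-1.54) and Yap1 (-0.0286), and with own-line controls and sex for Eif2s3y (-0.25) and Kdm5d (-0.0745). Without the male Olig1-Cre liver, and within chip 2 where it is absent, it turned for Hsd3b5 (0.14 and 0.11), Nat8 (0.0286 and 0.10) and Nqo1 (-0.16 and -0.13). Over the single omissions Hsd3b5 ranged from -2.14 to 0.14, Nat8 from -1.22 to 0.0286 and Nqo1 from -0.16 to 0.29.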
